A study of Mus musculus with 6 samples.

Results

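Histone methyltransferases and demethylases were compared between J110 and SSM3 cells, both mouse mammary tumour cell lines, in 3 biological replicates of each line. The 56 genes are the protein-coding Kmt2, Kmt5, Kdm, numbered Setd, Ezh, Nsd, Ehmt, Suv39h and numbered Prdm genes with Dot1l, Eed and Suz12, out of 52636 genes in the deposited table, chosen by symbol and not by their values. Some demethylase genes of the same families are not analysed here. J110 cells came from mice that carry an AIB1 cDNA under the MMTV LTR, a viral promoter active in mammary epithelium, and SSM3 cells from mammary tumours of 129SvEv mice. No drug treatment is labelled, and J110 cells received less serum and less CO2 than SSM3 cells, so line, genotype and culture cannot be told apart. Each line stands for its own tumour origin, so the libraries of one line are replicates of that line only. The study sequenced both lines to compare their lineage profiles.

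Lysine methylation on histone tails is written by methyltransferases, most of which carry a SET domain, and is removed by 2 classes of demethylase, the flavin-dependent amine oxidases and the Jumonji dioxygenases. Methylation of H3K4 marks promoters and enhancers, H3K36 and H3K79 the bodies of transcribed genes, and H3K9, H3K27 and H4K20 in their higher methylation states repressed chromatin. KMT2C, also called MLL3, is one of the genes often mutated in estrogen receptor-positive breast cancer, and EZH2 is widely studied as a cell cycle-linked repressor of lineage genes in mammary epithelium.

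Reads were taken from the 3′ ends of polyadenylated transcripts, and total counts ranged from 4200785 to 5416305 per library. Levels are given as CPM, counts scaled to the library total times a TMM factor, which is meant to adjust for composition differences between libraries. Because 3′ end counts are not divided by length, values are compared between lines for one gene and not between genes. In these bulk cultures, fewer cells of a type and less RNA per cell cannot be told apart. The gene of the transgene, Ncoa3, had from 102 to 110 counts in J110 and from 181 to 199 in SSM3. The transgene is a cDNA whose 3′ end is not given in the sources used here, so this count does not check the line of a library, and J110 and SSM3 stand for the labels throughout. The 5 epithelial markers summed to between 2677 and 2766 CPM in J110 and between 11878 and 13073 CPM in SSM3. In J110, Epcam averaged 0.681 CPM and Cdh1 4.02 CPM, and Krt8 and Krt18 made up most of the sum. In SSM3 most of it was Krt19, at 7412 CPM on average against 18.6 CPM in J110. Krt18 went the other way, at 970 CPM in SSM3 against 1430 CPM in J110. The 5 fibroblast markers summed to at most 1.98 CPM in any library, with Col1a2 and Lum at 0, and Ptprc, the pan-leukocyte marker, had a mean of 0 CPM in J110 and 0.142 CPM in SSM3. The 5 leukocyte markers, of which Csf1r gave nearly all counts, summed to between 12.3 and 16.2 CPM. The 4 endothelial markers summed to between 158 and 181 CPM in J110, mostly Cdh5, and at most 0.425 CPM in SSM3, with Tie1 at 0. The part of these marker counts in the results for the histone enzymes was not tested. Genes with at least 20 CPM in every J110 library and no count in the other SSM3 libraries had a count in SSM3 replicate 2 for 72 of 102, against 24 of 54 for replicate 1 and 5 of 35 for replicate 3. The same count on genes of SSM3 was 42 of 81 in J110 replicate 3, 8 of 47 in replicate 1 and 5 of 44 in replicate 2.

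Of the 56 genes, 47 passed edgeR's filter on low counts and were tested between the lines with its quasi-likelihood test. Of these, 39 had an adjusted p below 0.05 (83.0%), 17 of them higher and 22 lower in SSM3, where 77.9% of all 12284 genes tested were called, 38.6% higher and 39.2% lower. The share of histone enzymes called was thus near that of all genes. Of the 22 lower genes, 6 passed the filter through J110 alone, a route that favours a lower value in SSM3, and the 41 that passed in both lines had 17 higher and 16 lower. The median log2 fold change of the 47 (log2FC, SSM3 minus J110, given with its standard error as SE) was -0.069 against -0.014 over all genes tested, and the median absolute log2FC of the 47 was 0.78 against 0.84. A difference of at least 2-fold was called for 20 of the 47, where 43.7% of all genes reached it. For 40 of the 47 genes the lines had separate ranges, with no overlap among the 3 libraries of each, beside 79.6% of all genes.

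**Figure D1:**
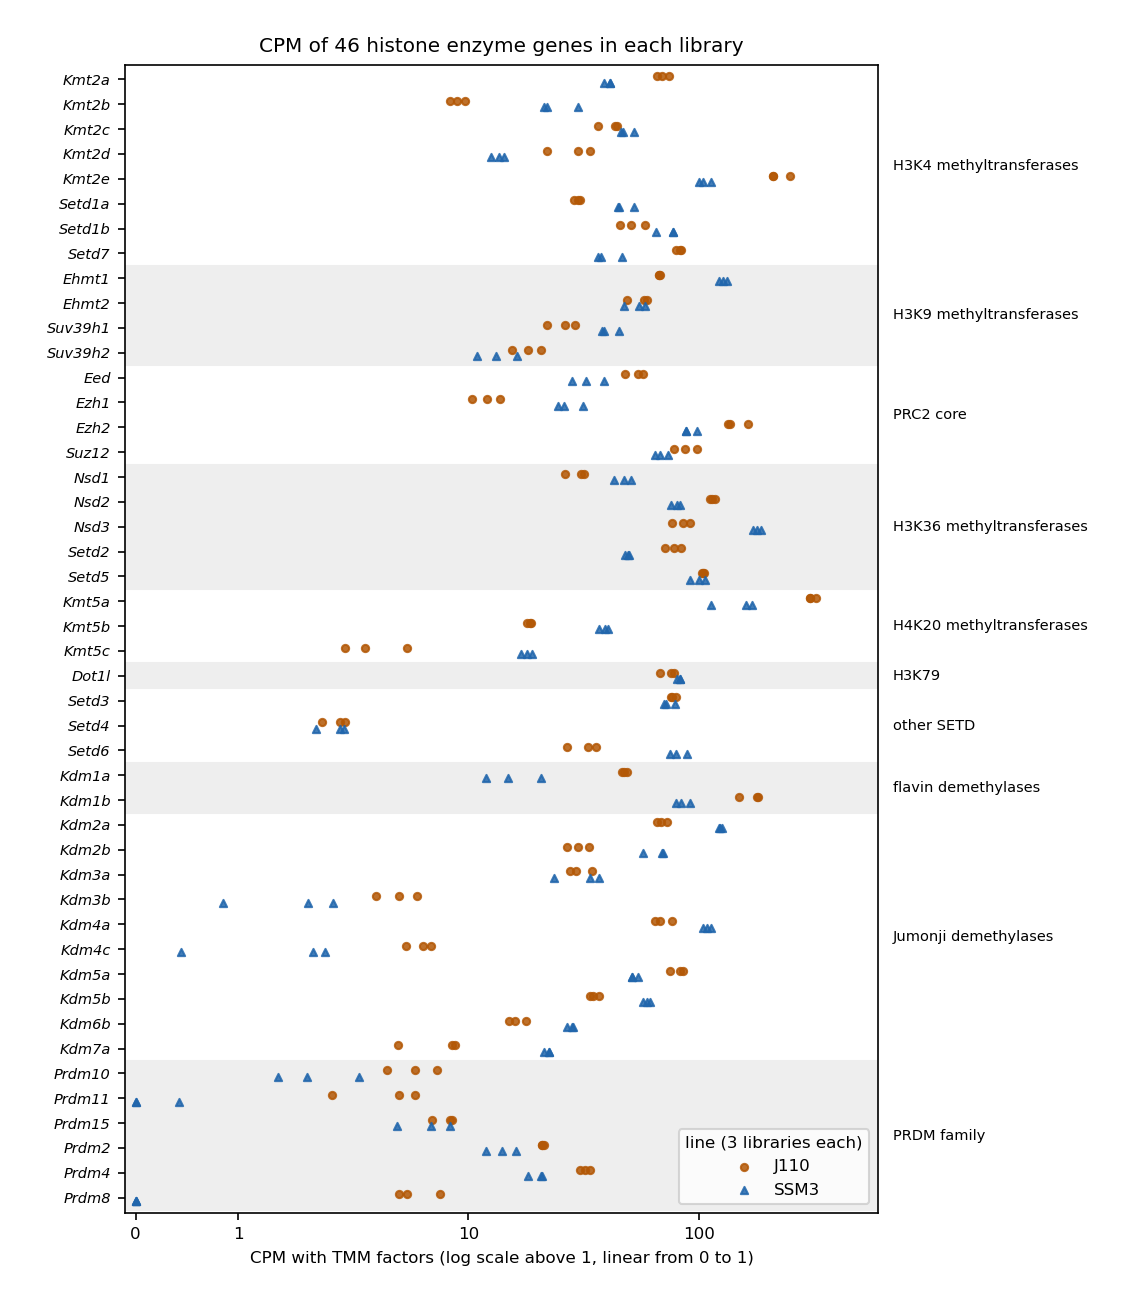
CPM of 46 of the 47 tested histone methyltransferase and demethylase genes (rows, grouped by substrate or family) in each library, on an axis that is logarithmic above 1 and linear from 0 to 1, with orange circles for J110 and blue triangles for SSM3. Most rows separate the lines by less than 4-fold in either direction, while Prdm8 and Prdm11 lie at or near 0 in SSM3.

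Among the H3K4 methyltransferases, Kmt2b and the paralogs Setd1a and Setd1b were higher in SSM3, Kmt2a, Kmt2d, Kmt2e and Setd7 were lower, and Kmt2c was not called, so 3 of 8 rose and 4 fell, near the 38.6% higher and 39.2% lower of all genes. Kmt2b (ENSMUSG00000006307), which encodes MLL2 and methylates H3K4 at CpG-rich promoters, had 43, 49 and 43 counts in J110 and 99, 100 and 150 in SSM3. Every SSM3 library lay above every J110 library, and the log2FC was 1.44 (SE 0.18, adjusted p = 1.42e-06). Its closest paralog Kmt2a, which encodes MLL1, a gene broken in leukaemia translocations, went the other way, with 342, 351 and 355 counts in J110 and 175, 195 and 208 in SSM3 and a log2FC of -0.78 (SE 0.093, adjusted p = 9.68e-07).

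Kmt2c (ENSMUSG00000038056, chromosome 5 of mm10 from 25271798 to 25498783, reverse strand), which encodes MLL3 and places H3K4 monomethylation at enhancers, had 189, 219 and 213 counts in J110 and 235, 217 and 236 in SSM3. In CPM these were 41.4 ± 4.34 (SD, n = 3) and 48.5 ± 3.38 (SD, n = 3), with the highest J110 library just below the lowest SSM3 library, and the log2FC of 0.23 (SE 0.11) had an adjusted p of 0.066 and was not called. Over the alternatives to the processing its adjusted p ranged from 0.00276, with library size only in place of TMM, to 1 with a test for changes beyond 2-fold. Kmt2d, the paralog of Kmt2c with the same enhancer activity, had 175, 152 and 105 counts in J110 and 64, 64 and 63 in SSM3. It fell (log2FC -1.09, SE 0.17, adjusted p = 2.00e-05), and the spread came mainly from J110, where replicate 3 was the lowest.

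Kmt2e and Setd7 fell by amounts like that of Kmt2d. Kmt2e, whose SET domain is thought to be inactive, averaged 223 ± 22.3 CPM (SD, n = 3) in J110 libraries and 106 ± 6.57 CPM (SD, n = 3) in those of SSM3, with log2FC -1.08 (adjusted p = 9.52e-09). It shares exons with Srpk2 on the opposite strand, whose counts were 54.0% of its own over all libraries, so this value is uncertain. Setd7, which monomethylates H3K4 and many non-histone proteins, fell from 82.1 ± 2.22 CPM (SD, n = 3) to 40.3 ± 5.43 CPM (SD, n = 3), with log2FC -1.03 (adjusted p = 9.56e-08). Setd1a and Setd1b, catalytic subunits of the complexes that place most H3K4 trimethylation, were higher in SSM3 by 0.67 and 0.50 on the log2 scale. Setd1a shares exons with Gm49388 on the same strand, with counts at 75.1% of its own, and is uncertain too.

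In PRC2, the complex that methylates H3K27, the catalytic paralogs went in opposite directions. Ezh2, the subunit of dividing cells, was lower in SSM3 together with the core subunits Eed and Suz12, and Ezh1, the subunit of resting cells, was higher. Ezh2 had 693, 691 and 784 counts in J110 and 442, 417 and 441 in SSM3, and fell (log2FC -0.66, SE 0.094, adjusted p = 7.90e-06). Ezh1 had 54, 61 and 66 counts in J110 and 117, 116 and 159 in SSM3 (log2FC 1.19, SE 0.16, adjusted p = 4.11e-06). The lines did not overlap for either gene. Eed, which binds the methylated tail and activates the enzyme, fell (log2FC -0.69, SE 0.12, adjusted p = 8.73e-05). Suz12, the scaffold subunit, fell (log2FC -0.36, SE 0.099, adjusted p = 0.00335), and with library size only in place of TMM its log2FC was -0.18 with an adjusted p of 0.0904. Suz12 shares exons on the opposite strand with Gm26563, which had 12.2% of its counts and a log2FC of -1.02, and its value is uncertain.

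The promoters of the opposing pair are shown because one of them holds a motif of E2F, the cell cycle factor family. The windows run from 250 bases before to 50 bases after the RefSeq start on GRCm38.p6, 5′ to 3′ on the gene's strand, chr6:47594981-47595280 (reverse strand) for Ezh2 and chr11:101226414-101226713 (reverse strand) for Ezh1, and capitals mark TTTGGCGC or TTTCGCGC on either strand.
Ezh2: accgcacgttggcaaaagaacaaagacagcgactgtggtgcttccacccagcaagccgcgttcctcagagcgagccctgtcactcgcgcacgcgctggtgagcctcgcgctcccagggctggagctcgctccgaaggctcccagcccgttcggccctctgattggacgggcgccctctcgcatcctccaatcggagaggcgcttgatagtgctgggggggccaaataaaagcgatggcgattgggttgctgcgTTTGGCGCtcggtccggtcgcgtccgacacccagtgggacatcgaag
Ezh1: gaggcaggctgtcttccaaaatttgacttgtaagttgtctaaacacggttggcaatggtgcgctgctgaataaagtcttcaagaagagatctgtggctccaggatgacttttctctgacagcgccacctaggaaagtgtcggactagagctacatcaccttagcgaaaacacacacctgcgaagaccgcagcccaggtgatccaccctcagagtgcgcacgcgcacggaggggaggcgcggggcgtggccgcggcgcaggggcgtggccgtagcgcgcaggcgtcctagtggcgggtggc
The Ezh2 window holds 1 such match and the Ezh1 window none, and Ezh2 was the only one of the 42 genes with a RefSeq window, 58 windows in all, with a match. Over all 32851 promoter windows 0.813% held one. The palindrome GGTCA, any 3 bases and TGACC, the core of the estrogen response element, was in 0 of the 58 windows and in 0.0700% of all windows. A match describes these letters only and shows no binding in either line.

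Proliferation genes stand beside Ezh2, because its level is known to follow the cell cycle. Of 15 such genes, 8 were lower and 5 higher in SSM3 and 2 were not called (86.7% called, beside 77.9% of all genes, 38.6% higher and 39.2% lower), with a median log2FC of -0.50. Rrm2 and Tyms, which supply nucleotides in S phase, fell by 1.72 and 1.62 on the log2 scale. Mki67 and Top2a, markers of cycling cells, had log2FC values of -0.14 and 0.010 and were not called, and E2f1 was higher by 0.66. The part of proliferation in the difference of Ezh2 was not tested.

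Among the H4K20 methyltransferases, Kmt5a, which places the first methyl group on H4K20 in G2 and mitosis, had 1576, 1636 and 1465 counts in J110 and 766, 754 and 571 in SSM3. All SSM3 libraries lay below all J110 libraries, and it fell (log2FC -1.07, SE 0.11, adjusted p = 2.06e-07). Kmt5b and Kmt5c, which add the further methyl groups, both rose. Kmt5c had 28, 18 and 14 counts in J110 and 76, 89 and 90 in SSM3 (log2FC 2.16, SE 0.22, adjusted p = 1.58e-07), the largest rise among the 47 genes. Kmt5b averaged 18.4 ± 0.430 CPM (SD, n = 3) in J110 libraries and 39.0 ± 1.86 CPM (SD, n = 3) in those of SSM3, with log2FC 1.08 (adjusted p = 4.93e-07).

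Among the H3K36 methyltransferases, Nsd3 and Nsd1 rose and Nsd2 and Setd2 fell. Nsd3 (ENSMUSG00000054823, chromosome 8 from 25601601 to 25719667, forward strand), which lies in a region amplified in some human breast cancers, had 446, 466 and 366 counts in J110 and 776, 846 and 934 in SSM3. All SSM3 libraries lay above all J110 libraries, with a log2FC of 1.08 (SE 0.086, adjusted p = 7.05e-09). Nsd1, which places H3K36 dimethylation between genes, was higher (log2FC 0.67, SE 0.12, adjusted p = 6.34e-05). Nsd2, known from the translocations of myeloma, fell by 0.52 and Setd2, the main enzyme of H3K36 trimethylation, fell by 0.67 on the log2 scale (adjusted p = 2.13e-05 and 4.89e-06). Nsd2 shares exons with Nelfa on the opposite strand, whose counts were 43.0% of its own, so its value is uncertain. Setd5, a relative without clear catalytic activity, had 105 ± 0.981 and 99.6 ± 7.82 CPM (SD, n = 3 each) and was not called, with log2FC -0.069 (SE 0.085, adjusted p = 0.468).

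Of the H3K9 methyltransferases, Ehmt1 and Suv39h1 were higher in SSM3. Ehmt1, which encodes GLP, had 354, 342 and 324 counts in J110 and 574, 576 and 665 in SSM3 (log2FC 0.91, SE 0.081, adjusted p = 2.84e-08). Its partner in the same heterodimer, Ehmt2, which encodes G9a, had 254, 293 and 285 counts in J110 and 214, 259 and 294 in SSM3. The Ehmt2 values overlapped, with a log2FC of -0.043 (SE 0.11, adjusted p = 0.723). Suv39h1, which trimethylates H3K9 in pericentric heterochromatin, was higher (log2FC 0.66, SE 0.13, adjusted p = 0.000205). Its paralog Suv39h2 was called lower by 0.42 (SE 0.18, adjusted p = 0.0437), although the lines overlapped and the adjusted p reached 0.219 with library size only, 0.0938 with DESeq2 and 0.0509 with a filter of 1 count in any library. It was 0.0895 without J110 replicate 2, 0.163 without J110 replicate 3, 0.179 without SSM3 replicate 1 and 0.110 without SSM3 replicate 2 (edgeR). Suv39h2 shares exons with Dclre1c on the opposite strand, whose counts were 21.8% of its own.

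Dot1l, the only H3K79 methyltransferase, had 406, 383 and 325 counts in J110 and 363, 392 and 419 in SSM3. Its log2FC was 0.16 (SE 0.087, adjusted p = 0.110) and was not called, but with library size only it was 0.33 with an adjusted p of 0.00331. The other SETD genes act mainly outside histones, Setd3 on actin, Setd6 on RELA and Setd4, whose substrates are less settled. Setd6 averaged 31.9 ± 4.54 CPM (SD, n = 3) in J110 libraries and 81.3 ± 6.99 CPM (SD, n = 3) in those of SSM3, with log2FC 1.35 (adjusted p = 1.14e-08). Setd3 and Setd4 had log2FC values of -0.066 (SE 0.086) and -0.032 (SE 0.31) and were not called. With from 11 to 14 counts per library, Setd4 had the largest SE of the 8 genes not called.

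**Figure D2:**
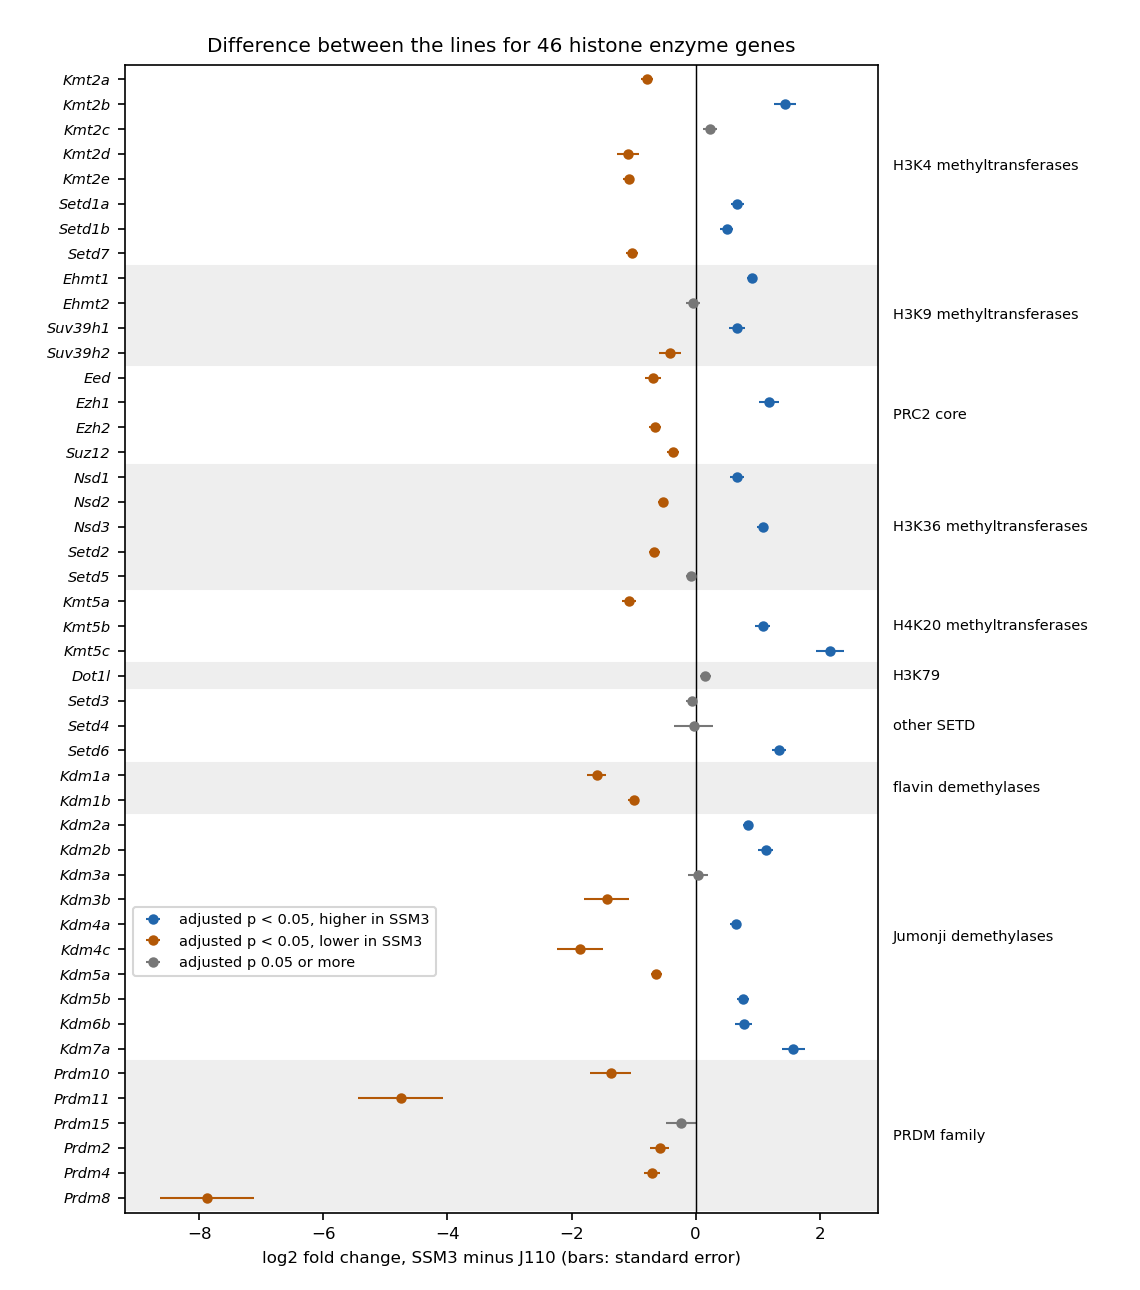
Log2FC, SSM3 minus J110, of 46 of the 47 tested histone methyltransferase and demethylase genes with its SE (standard error), coloured by call from edgeR's quasi-likelihood test. Points of nearly every substrate group fall on both sides of 0, both flavin demethylases and the Prdm genes lie below it, and the values of Prdm8 and Prdm11 rest on at most 2 counts in SSM3.

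Both flavin demethylases were lower in SSM3. Kdm1a, which encodes LSD1 and removes H3K4 methylation at enhancers within the CoREST complex, had 242, 239 and 235 counts in J110. In SSM3 it had 93, 70 and 60, all well below J110, and fell (log2FC -1.60, SE 0.16, adjusted p = 9.33e-08), a 3.02-fold difference. Kdm1b, the paralog known from oocytes, where it removes H3K4 methylation ahead of imprinting, had 932, 761 and 865 counts in J110 and 360, 430 and 420 in SSM3, lower in each SSM3 library (SE of log2FC 0.092, adjusted p = 4.30e-08). It shares exons on the opposite strand with Dek, which had 314% of its counts and a log2FC of -0.92, so the Kdm1b value is uncertain.

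Of the 12 Jumonji demethylases analysed, 10 could be tested. Of these 6 were higher, 3 lower and 1 not called, with a median log2FC of 0.70, beside 38.6% higher and 39.2% lower over all genes. Kdm7a, which acts on H3K9 and H3K27, had 44, 25 and 42 counts in J110 and 101, 100 and 113 in SSM3 (log2FC 1.58, SE 0.19, adjusted p = 1.36e-06). Kdm6b, which removes H3K27 trimethylation, was higher (log2FC 0.78, SE 0.14, adjusted p = 6.55e-05).

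The H3K36 demethylases Kdm2a and Kdm2b both rose. Kdm2a had 341, 348 and 349 counts in J110 and 555, 576 and 636 in SSM3, a log2FC of 0.85 (adjusted p = 8.59e-08). Kdm2b, which also brings a Polycomb repressive complex 1 to CpG islands, was higher (log2FC 1.13, SE 0.12, adjusted p = 1.53e-07), but shares exons on the opposite strand with Rnf34, which had 126% of its counts and a log2FC of 0.82.

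The paralogs that remove H3K4 trimethylation went apart. Kdm5b, which is frequently overexpressed in luminal breast cancer, had 180, 171 and 177 counts in J110 and 276, 270 and 299 in SSM3, higher (log2FC 0.76, SE 0.096, adjusted p = 2.10e-06). Kdm5a had 391, 420 and 411 counts in J110 and 245, 243 and 257 in SSM3, and fell (log2FC -0.63, SE 0.090, adjusted p = 6.96e-06). Kdm5a shares exons with Ccdc77 on the opposite strand, whose counts were 25.6% of its own.

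The H3K9 demethylases followed no single direction. Kdm4a, which acts on H3K9 and H3K36, was higher (log2FC 0.64, SE 0.089, adjusted p = 5.43e-06). Kdm4c, its paralog, had 33, 27 and 33 counts in J110 and 2, 10 and 12 in SSM3, and fell (log2FC -1.86, SE 0.37, adjusted p = 0.000225). Kdm3b had 31, 20 and 24 counts in J110 and 9, 4 and 13 in SSM3, and fell (log2FC -1.44, SE 0.36, adjusted p = 0.00155), at low counts and with Gm26538 on the opposite strand at 52.5% of them. Kdm4c and Kdm3b passed the filter through J110 alone, which favours a lower value in SSM3, and neither could be tested with at least 10 counts required in every library. Kdm3a, induced by hypoxia, overlapped between the lines with 30.6 ± 3.60 and 31.4 ± 7.05 CPM (SD, n = 3 each) and was not called, with log2FC 0.033 (SE 0.16, adjusted p = 0.853). Kdm4d had at most 1 count in any library. Kdm8 had 7, 6 and 5 counts in J110 and 1, 2 and 1 in SSM3, too few to pass the filter. With genes of 1 count or more in any library tested, edgeR called it lower (log2FC -1.97, adjusted p = 0.0334).

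The PRDM family, zinc finger proteins with a PR domain related to SET, held the widest differences. Of its 14 genes 7 passed the filter, and none of these was called higher and 6 lower in SSM3. Over all genes 77.9% were called, 38.6% higher and 39.2% lower. Of the 6, 4 passed the filter through J110 alone, among them Prdm8, Prdm10 and Prdm11, so the count and the median log2FC of the 7, -1.37, are a description.

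Prdm8 and Prdm11 were at or near 0 in SSM3, and having passed the filter through J110 had to differ. Prdm8, a repressor of neural and retinal genes, had 26, 38 and 26 counts in J110 and none in SSM3, at least 28.4-fold lower against a floor of 3 counts over the line (adjusted p = 2.53e-07). Prdm11 had 26, 13 and 28 counts in J110 and 0, 2 and 0 in SSM3, a ratio of 31.7 (95% exact counting interval 8.44 to 267, which covers counting error only, adjusted p = 7.79e-06). Both of its SSM3 counts were in replicate 2. On the genes of J110 described above, that library had 0.491% of the J110 level. Replicate 1, without a Prdm11 count, had 0.414% and replicate 3 had 0.0872%, each on its own set of genes. The source of the 2 counts was not tested. Without replicate 2, when Prdm11 has no SSM3 count, its fitted log2FC moved from -4.75 to -7.46.

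The promoter windows of Prdm8 and Prdm11 are shown because these genes were counted in one line only or nearly so, and CpG-rich promoters are known as places where DNA methylation or Polycomb can act. Capitals mark each CG, in windows of the same length on GRCm38.p6 at chr5:98180619-98180918 (forward strand) for Prdm8 and chr2:93046116-93046415 (reverse strand) for Prdm11.
Prdm8: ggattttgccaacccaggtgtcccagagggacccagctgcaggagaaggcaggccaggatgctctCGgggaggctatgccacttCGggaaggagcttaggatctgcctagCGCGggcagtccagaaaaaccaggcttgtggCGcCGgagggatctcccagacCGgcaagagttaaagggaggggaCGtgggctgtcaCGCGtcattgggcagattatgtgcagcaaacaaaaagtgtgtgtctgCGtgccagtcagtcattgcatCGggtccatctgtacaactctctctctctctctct
Prdm11: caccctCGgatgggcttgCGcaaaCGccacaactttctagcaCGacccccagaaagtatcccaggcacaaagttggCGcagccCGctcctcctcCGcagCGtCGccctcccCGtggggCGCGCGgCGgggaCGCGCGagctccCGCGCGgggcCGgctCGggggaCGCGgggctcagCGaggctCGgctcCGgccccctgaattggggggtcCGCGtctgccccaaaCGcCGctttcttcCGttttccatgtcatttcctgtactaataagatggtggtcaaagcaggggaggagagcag
Prdm11 holds 32 CG in its 300 bases, a number that 9.52% of all windows reach, and Prdm8 holds 12, which 39.6% of all windows reach. The median was 27.5 over the 58 windows of histone enzymes and 7 over all windows. Neither DNA methylation nor H3K27 methylation was measured in these cells.

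The other PRDM genes differed less. Prdm10 had 23, 37 and 28 counts in J110 and 15, 7 and 10 in SSM3, and was called lower, having passed the filter through J110 alone (log2FC -1.37, SE 0.33, adjusted p = 0.00132). Prdm2, also called RIZ, and Prdm4 fell by 0.58 and 0.70 on the log2 scale (adjusted p = 0.00254 and 0.000111). Prdm15 was not called, with a log2FC of -0.23 (SE 0.24, adjusted p = 0.384). Prdm9, which sets recombination sites in meiosis, had 17, 16 and 9 counts in J110 and 4, 6 and 5 in SSM3 and was not tested. Without J110 replicate 3 or any one SSM3 library it passed the filter and was called lower, with log2FC values between -1.60 and -1.28. Prdm1, Prdm6, Prdm14 and Prdm16 had at most 4 counts in any library, and Prdm12 and Prdm13 had none.

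To set paralogs side by side, the log2 ratio of 14 pairs was computed within each library, where the scaling between libraries nearly cancels. The ratio itself depends on how well each 3′ end is counted, so only its difference between the lines is read. In 10 of the 14 pairs the ratios did not overlap between the lines. The share over other gene pairs was not computed, so the count is a description, and whether it is particular to paralogs was not tested. Each of these had p = 0.1 in a two-sided exact permutation test, the smallest that 3 libraries against 3 allow, and 0.14 adjusted over the 14 pairs. Ezh2 over Ezh1 was 3.63, 3.46 and 3.53 in J110 and 1.90, 1.83 and 1.46 in SSM3, a difference of -1.81, or a 3.51-fold shift toward Ezh1. Kmt2a over Kmt2b shifted by -2.16 toward Kmt2b, Kmt2c over Kmt2d by 1.27 toward Kmt2c, and Nsd2 over Nsd3 by -1.60 toward Nsd3. Kdm5a over Kdm5b was 1.11, 1.29 and 1.21 in J110 and -0.17, -0.15 and -0.22 in SSM3.

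The remaining pairs ranged widely. Kdm4a over Kdm4c shifted by 2.49, the largest difference, but rests on few Kdm4c counts in SSM3. Suv39h1 over Suv39h2 shifted by 1.08, Ehmt1 over Ehmt2 by 0.95, Nsd1 over Nsd2 by 1.18 and Kmt5b over Kmt5c by -1.04, each without overlap. Setd1a over Setd1b (difference 0.16, exact permutation p = 0.3), Kdm1a over Kdm1b (-0.60, p = 0.2), Kdm2a over Kdm2b (-0.27, p = 0.2) and Kdm3a over Kdm3b (1.37, p = 0.2) overlapped between the lines.

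**Figure D3:**
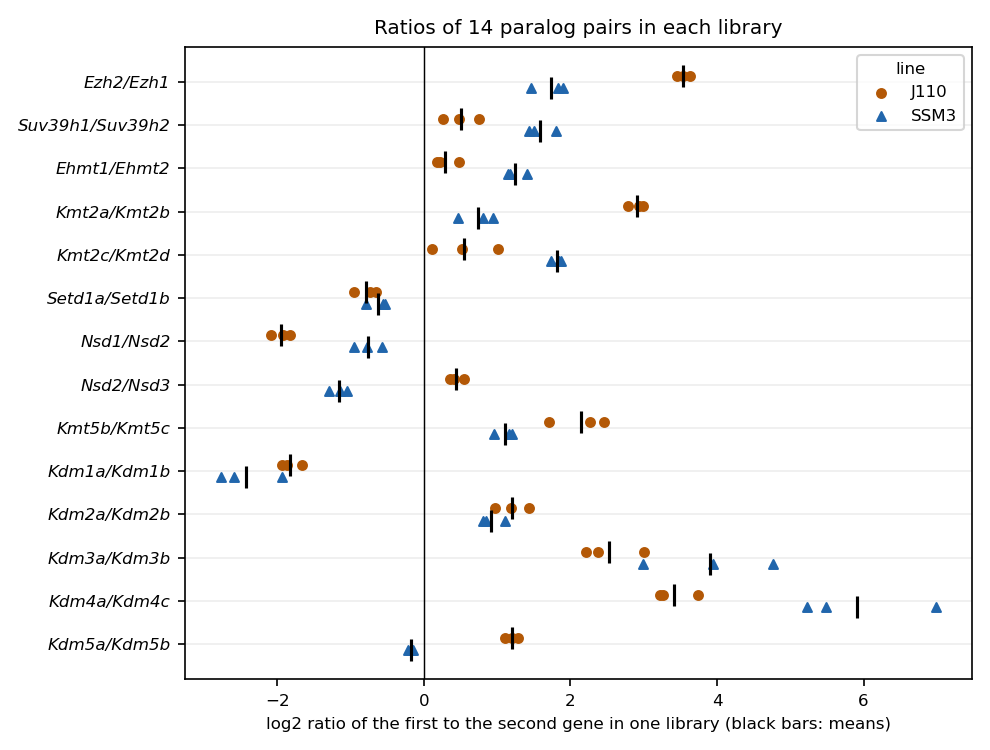
Log2 ratio of the first to the second gene of 14 paralog pairs in each library, with orange circles for J110, blue triangles for SSM3 and black bars for the means of 3 libraries. In 10 of the 14 pairs the lines do not overlap, for example Ezh2/Ezh1, whose mean was 3.54 in J110 and 1.73 in SSM3.

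The partners of these enzymes were examined next, in 6 lists of genes that are not themselves among the 56. Of 49 partner genes 47 were tested, and 22 were higher and 16 lower in SSM3 (80.9% called), again near the share of all genes, with a median log2FC of 0.19. With library size only the split was 24 higher and 13 lower. Among the 11 COMPASS subunits, which assemble with the H3K4 methyltransferases, 8 were higher and 3 lower, beside 38.6% and 39.2% of all genes. Pagr1a, a subunit of the KMT2C and KMT2D complexes, was higher by 1.33 (adjusted p = 2.23e-08), and its direct partner in them, Paxip1, fell by 0.67 (adjusted p = 0.00022).

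The accessory subunits of PRC2 gave the largest rise among the partners. Jarid2, which recruits PRC2 in one of its forms, had 63, 46 and 53 counts in J110 and 295, 336 and 312 in SSM3 (log2FC 2.62, SE 0.13, adjusted p = 1.63e-11). Aebp2, the other subunit that defines this form, had 361, 356 and 364 counts in J110 and 181, 163 and 172 in SSM3 and fell (log2FC -0.99, SE 0.099, adjusted p = 1.20e-07). Of the 7 tested accessory genes, 3 were higher and 4 lower, beside 77.9% of all genes called, 38.6% higher and 39.2% lower.

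The other lists were mixed, and their counts too stand beside 38.6% higher and 39.2% lower over all genes. Of the 8 tested H3K9 partners and readers, 4 were higher, led by Atf7ip, the cofactor of SETDB1 (1.32 on the log2 scale, adjusted p = 1.28e-09), and 3 lower, led by Cdyl, a reader of methylated H3K9 (-1.34, adjusted p = 1.31e-05). Of the 6 LSD1-CoREST genes, which form the complex of Kdm1a, 2 were higher and 3 lower. Phf21a, a reader of unmethylated H3K4, was higher by 1.01 (adjusted p = 4.15e-06) and Rcor3 fell by 0.61 (adjusted p = 0.00023), so these partners did not all fall with Kdm1a. Of 11 other Jumonji and SET enzymes, 4 were higher, led by the H3K9 demethylase Phf2 (1.33, adjusted p = 1.12e-09), and 3 lower. One of these, Hr, a Jumonji corepressor of hair follicles, had 27, 25 and 22 counts in J110 and 1, 2 and 1 in SSM3, and having passed the filter through J110 alone had to come out lower. Of 4 DOT1L partners only Mllt6 was called, at 21.4 ± 2.51 CPM (SD, n = 3) in J110 libraries and 95.4 ± 8.72 CPM (SD, n = 3) in those of SSM3, with log2FC 2.16 (adjusted p = 2.53e-11).

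**Figure D4:**
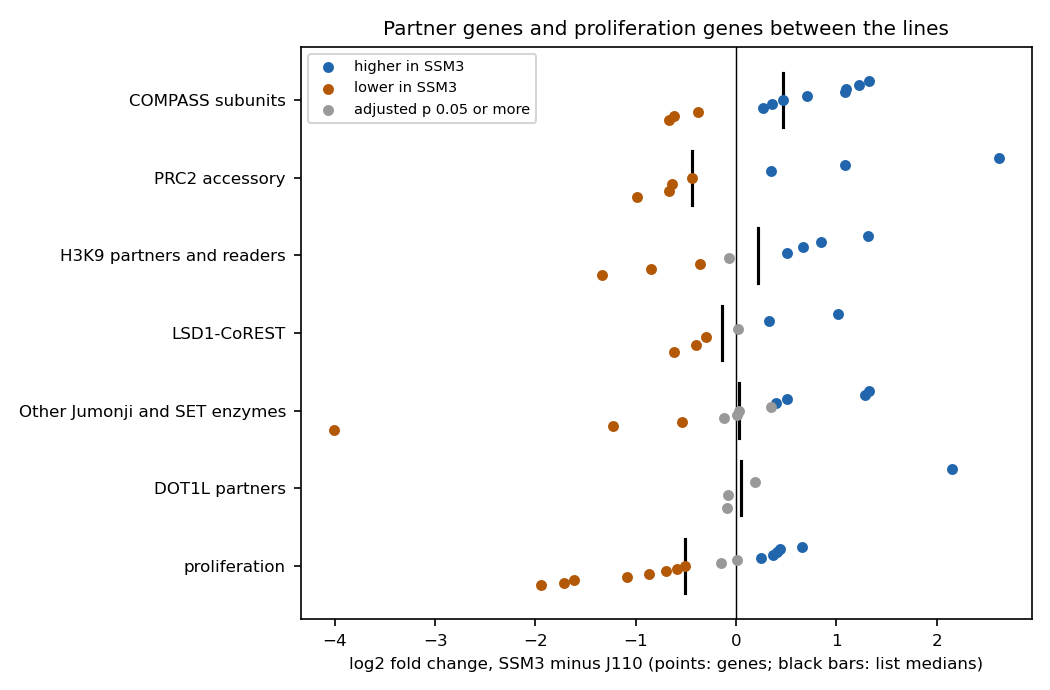
Log2FC, SSM3 minus J110, of 47 tested partner genes in 6 lists and of 15 proliferation genes, one point per gene, coloured by call, with black bars for list medians. The list medians include 0.47 for COMPASS subunits and -0.50 for proliferation genes, and Jarid2 at 2.62 and Mllt6 at 2.16 are the highest points.

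Direction was set beside chromosome as a description. On chromosomes 7, 8 and 19 of mm10, 7 of the 8 tested histone enzymes (Kmt2b, Setd1a, Kmt5c, Nsd3, Setd6, Kmt5b and Kdm2a) were higher in SSM3 and 1, Eed, was lower. On all other chromosomes 10 of 39 were higher and 21 lower. Over all genes tested 38.6% were higher and 39.2% lower, and the shares on single chromosomes were not computed. The median log2FC of all genes tested was 0.42 on chromosome 7, 0.47 on chromosome 8 and 0.40 on chromosome 19, against 0.25 or less on every other chromosome. On chromosome 9 all 3 tested genes, Kmt2a, Setd2 and Prdm10, were lower, and the median of all genes there was -0.34. Some other chromosomes went against their median. On chromosome 6 (median 0.16) 1 gene was higher and 3 lower, on chromosome 2 (0.13) 1 was higher and 2 lower, on chromosome 15 (0.13) the 1 tested gene was lower, and on chromosome 1 (-0.34) the 1 tested gene was higher. The chromosomes were picked out after their values were seen, and the part of their level, or of copy number, which was not measured, in these results was not tested.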

How the data were processed

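RNA of J110 and SSM3 cells (3 replicates each) was sequenced from its 3′ ends with the QuantSeq kit. The submitters' processing notes name mm10, bcl2fastq 2.17.1.14, cutadapt 2.1, HISAT2 2.0.4 and featureCounts with Subread 2.0.0, and the authors mapped reads and counted them per gene. The deposited values are raw counts of 52636 genes without normalisation. Strand setting and the handling of reads over several genes are not given in the sources used here. Of the genes, 52403 (99.6%) matched GENCODE M21 of GRCm38, the mm10 build. Of the 56 histone enzyme genes, 24 share exons with another gene, 9 of them with one at 10% or more of their counts. No molecular identifiers are described, so intervals and floors cover counting error only.

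After filterByExpr and TMM scaling, edgeR 4.0.16 (R 4.3.3, limma 3.58.1) gave quasi-likelihood tests with Benjamini-Hochberg adjustment over 12284 genes and a threshold of 0.05. An SE is the log2 fold change over the square root of F. The biological coefficient of variation was 8.30%, and the code was tested on simulated data. Paralog ratios use log2 CPM with a prior count of 2. Scaling by library size only shifted the median of all genes from -0.014 to 0.16 on the log2 scale. Alternatives covered DESeq2 1.42.0, limma-voom, scalings, filters, thresholds, a replicate block and each library left out. Named genes are Kmt2c, per group the 2 largest called changes, the highest mean level and all genes not called, every called change of at least 2-fold, and the extreme called partners in each direction. Others were named after their values were seen. The genes and lists were chosen with earlier results of these data known. Some results on single genes are not reported here, and counts over genes include them.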

Additional observations from a re-analysis of the deposited data

How the results depend on the processing

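DESeq2 size factors, library size only, DESeq2, limma-voom, both filters, protein-coding genes only, an adjusted p below 0.01 and leaving out each library kept the counts of called histone enzymes, partner genes and proliferation genes within 1.5 times. With glmTreat for changes beyond 2-fold, 4 histone enzymes were higher and 5 lower, 6 partner genes were higher and 2 lower, and 0 proliferation genes were higher (5 with edgeR and no fold threshold) and 3 lower. Leaving out the 24 histone enzymes that share exons left 10 higher and 8 lower, against 17 and 22 of all those tested. Fewer genes entered, the cause of the changed split was not tested, and the median log2 fold change was -0.032. The median was 0.11 with library size only, -0.28 with genes of 1 count or more in any library, and from -0.23 to -0.060 without one library, and the cause was not tested. Among the named genes, those that changed sign were all not called. With library size only, Ehmt2 had a log2 fold change of 0.13, Setd3 of 0.11, Setd4 of 0.14 and Setd5 of 0.11. Without one library, Ehmt2 ranged from -0.14 to 0.040, Kdm3a from -0.095 to 0.21 and Setd4 from -0.14 to 0.088. Over 554 values of 35 named genes, 523 kept direction and call, 18 lost the call, all with glmTreat, 2 gained it with library size only (Kmt2c and Dot1l) and 11 turned. Suv39h2 and Suz12 are not among the 35, and both also lost the call with library size only. Suv39h2 further lost it with DESeq2, with a filter of 1 count in any library and without some single libraries.

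Same-numbered libraries of the lines correlated at 0.012, 0.015 and 0.027 in their deviations, each the best match of its number, a hint from the data only and too weak to pair them. With the replicate number as a block, 17 histone enzymes were higher and 22 lower, and no call of a histone enzyme changed. Of the 14 pair ratios, 11 differed the same way in all 3 numbered pairs. Depth limits the genes with a few counts per library, such as Setd4, and Kdm8, which was tested and called lower only with genes of 1 count or more in any library (adjusted p = 0.0334).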
